A study of Homo sapiens with 6 samples.

Results

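Homologous recombination and the Fanconi anaemia pathway were described in SW1353 cells through 42 genes chosen by name, all of which were found among the 60691 genes of the count table. SW1353 is an established human chondrosarcoma line, derived from a malignant cartilage tumour of bone. Their mRNA was sequenced in 6 libraries, 3 labelled shSIRT1 and 3 labelled shfirefly. Both groups were grown at 3% oxygen, a low level, until 48 h from plating, and both had received a lentivirus encoding a short hairpin RNA (shRNA). The shSIRT1 hairpin is directed against SIRT1, an NAD+-dependent deacetylase, according to sample titles, treatment labels and design text, but the treatment protocol names EPAS1, which encodes HIF-2α, in its place. The shfirefly hairpin targets firefly luciferase, a gene absent from the human genome, and served as control. The study asked how SIRT1 relates to transcription by HIF-2α and to chondrosarcoma malignancy. The design text calls the 3 samples of each group biological replicates, and each hairpin is given by name alone, with no second hairpin against the same gene.

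Homologous recombination repairs DNA breaks that cut both strands by copying the sister chromatid, and so acts mainly in S and G2 phase. The broken ends are resected, BRCA1, PALB2 and BRCA2 prepare the exposed strand for pairing, the BCDX2 and CX3 complexes assist them, and helicases and nucleases take the joined molecules apart. The Fanconi pathway handles crosslinks between the strands: a core complex attaches ubiquitin to FANCD2 and FANCI, which then direct nucleases and recombination to the lesion. Many of these genes are transcribed in a cell cycle-dependent manner in human cells.

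The libraries held 24993064 to 29564361 counts in shSIRT1 and 28556696 to 32044191 counts in shfirefly. Levels are given as CPM, counts per 1000000 library counts after TMM scaling between libraries, and a limit of 3 counts corresponded to 0.0968 to 0.115 CPM per library, which covers counting error only. SIRT1 mRNA stood at 12.9, 13.2 and 14.7 CPM in shSIRT1 and at 25.99, 24.8 and 24.03 CPM in shfirefly (log2 fold change -0.88 ± 0.07 SE, adjusted p = 2.3e-09, tested in edgeR by quasi-likelihood, Benjamini-Hochberg adjusted). EPAS1, the other named target, stood at 245, 226 and 228 CPM in shSIRT1 and at 477, 483 and 409 CPM in shfirefly (log2 fold change -0.97 ± 0.06 SE, adjusted p = 5.8e-07). Both were lower in every shSIRT1 library, and these levels do not tell which gene the hairpin was directed against. Of the 10 chondrocyte markers only SOX9 exceeded 10 CPM (mean 53.1 CPM with an SD of 1.17 in shSIRT1, against 43.7 with an SD of 2.54 in shfirefly). The cartilage collagen gene COL9A1 had no counts in any of the 6 libraries, and COL2A1 had at most 0.620 CPM, while the mesenchymal marker VIM was abundant in both groups. Markers of leukocytes, endothelium and epithelium stood at 1.41 CPM or lower in every library.

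Most of the 42 genes were higher in shSIRT1 libraries than in shfirefly libraries. A filter on low counts passed 41 of them, and 33 rose, 1 fell and 7 did not pass the test at an adjusted p under 0.05. Over all 16591 genes tested, 52.8% were called, 26.8% higher and 26% lower, so the share of members that rose, 80.5%, exceeded the background share. No test of that excess was made, and the members were chosen with earlier results of these data known. The median log2 fold change of the tested members was 0.51, beside 0.005 for all tested genes. The changes were moderate: 12 members rose by at least 1.5-fold, which was so for 7.32% of all tested genes, and the log2 fold changes spanned -0.26 to 1.52. For 35 members the groups had separate CPM ranges, 34 of them with shSIRT1 higher, where the shares over all tested genes were 59.7% and 30.4%. Summed over the 42 genes, the level was 1181 ± 30.2 CPM in the shSIRT1 group, against 823 ± 70.0 CPM in the shfirefly group (SD, n = 3), a ratio of 1.43. In bulk RNA, more cells in a phase that makes these transcripts and more transcript per cell cannot be told apart.

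**Figure D1:**
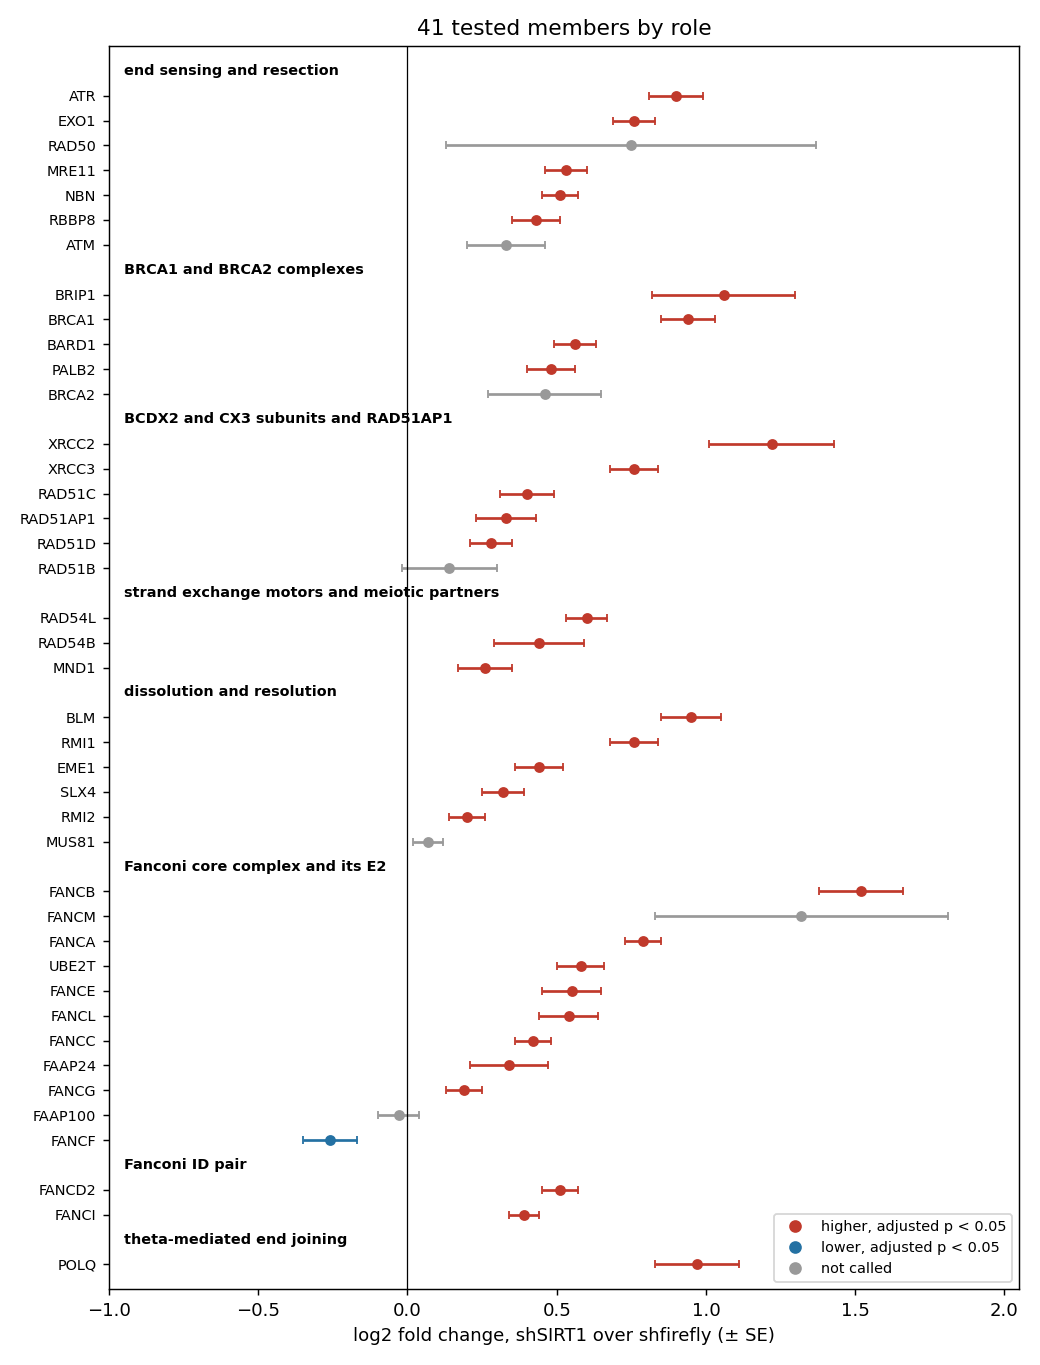
Log2 fold change (shSIRT1 over shfirefly, x axis, bars are ± SE) of the 41 tested members, grouped by role. Red points rose, the blue point fell and grey points did not pass an adjusted p of 0.05; 39 of the 41 points lie to the right of 0, and FANCB lies farthest right at 1.52.

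The authors' deposited table gave a similar picture from DESeq2. In it 33 members rose and none fell, 8 had an adjusted p above the threshold and 1, DMC1, had none. The authors' deposited table called 20.6% of its genes higher and 19.5% lower. Of the 34 members called here, 30 were also called in the authors' deposited table. FANCF, the member that fell here, had an adjusted p of 0.079 in the authors' deposited table. RAD54B, MND1 and FAAP24, which rose here, had 0.074, 0.065 and 0.108 there. ATM, BRCA2 and FANCM, which did not pass here, were called higher there, with adjusted p of 0.0018, 0.035 and 0.018. When DESeq2 was run here on the same counts, BRCA2 and FANCM passed but ATM did not (adjusted p = 0.059). The source of that difference was not tested.

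One control library, shfirefly replicate 3, stood apart for these genes and also over all tested genes. Over all tested genes a chi-square statistic per gene was 5.82 and 6.05 between it and the other shfirefly libraries, against 2.79 between those. Against the shSIRT1 libraries the statistic was 57.4 to 66.9 for this library and 74.9 to 89.9 for the other shfirefly libraries. The shfirefly library of replicate 3 was the highest of its group for 32 of the 41 tested members, where it was the highest for 36.6% of all tested genes. The shSIRT1 library of replicate 3 was the highest of its group for 20 of 41 members and 31.6% of all tested genes. Without the shfirefly library of replicate 3, 36 members rose and 1 fell, and without both libraries numbered 3 the counts were again 36 and 1.

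Promoter sequences were available for 38 of the 42 genes as RefSeq windows on GRCh38.p14 that run from 250 bases before a gene's start to 50 bases from it. The windows were searched for 4 kinds of short letter pattern on both strands. E2F-type letters resemble sites bound by the E2F cell cycle transcription factors and were spelled TTCCCGC, with an inner change TTCGCGC, and with a different start TTGCCGC and lastly TTGGCGC. They were found for 22 of the 38 genes (57.9%), beside 24.2% of tested genes with a window, where a match in any window of a gene counted. Counted by window, they were in 26 of the members' 49 windows (53.1%), beside 13.0% of all 35116 windows. Those windows were not limited to tested genes, and no share by window was computed for tested genes alone. CHR-type letters (TTTGAA or TTCGAA), found in promoters of many mitotic genes, were present for 15.8% of members and 15.7% of tested genes. The CCAAT box (CCAAT) was present for 42.1% and 43.5%, and the hypoxia-response core (ACGTG or GCGTG), the core bound by HIF proteins, for 76.3% and 68.8%. No pattern contains another, although neighbouring matches can share letters at their edges, and a match describes the letters, not binding. Of the 21 tested members with E2F-type letters 20 rose and 1, FANCF, fell, with a median log2 fold change of 0.56. Of the 16 without them 9 rose, none fell and 7 did not pass the test, with a median of 0.45. Both sets spanned wide ranges, -0.26 to 1.22 with the letters and -0.03 to 1.52 without, and the difference between them was not tested. The windows below run from 100 bases before the start to 30 bases from it, 5′ to 3′ on the gene's strand, with E2F-type letters on either strand in capitals. They show 5 members that rose and carry the letters, the member that fell and carries them, and the member with the largest rise, FANCB, which does not.
BRCA1 (chr17:43125335-43125464, reverse strand): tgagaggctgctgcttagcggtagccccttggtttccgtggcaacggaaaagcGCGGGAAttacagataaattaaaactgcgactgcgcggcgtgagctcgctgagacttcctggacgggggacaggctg
XRCC2 (chr7:152676112-152676241, reverse strand): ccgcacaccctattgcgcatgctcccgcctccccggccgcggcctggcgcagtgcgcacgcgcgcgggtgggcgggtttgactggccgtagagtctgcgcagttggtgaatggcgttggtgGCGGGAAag
BLM (chr15:90717246-90717375, forward strand): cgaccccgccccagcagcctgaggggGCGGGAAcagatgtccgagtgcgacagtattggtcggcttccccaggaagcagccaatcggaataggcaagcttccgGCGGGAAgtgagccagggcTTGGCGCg
POLQ (chr3:121545959-121546088, reverse strand): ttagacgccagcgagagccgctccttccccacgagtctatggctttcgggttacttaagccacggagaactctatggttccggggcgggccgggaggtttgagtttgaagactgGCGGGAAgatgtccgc
FANCD2 (chr3:10026337-10026466, forward strand): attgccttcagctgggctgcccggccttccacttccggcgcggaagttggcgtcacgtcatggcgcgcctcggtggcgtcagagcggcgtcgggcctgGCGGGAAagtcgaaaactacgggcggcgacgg
FANCF (chr11:22625794-22625923, reverse strand): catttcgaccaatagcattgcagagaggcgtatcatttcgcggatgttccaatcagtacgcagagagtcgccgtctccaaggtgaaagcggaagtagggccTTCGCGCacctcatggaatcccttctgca
FANCB (chrX:14873040-14873169, reverse strand): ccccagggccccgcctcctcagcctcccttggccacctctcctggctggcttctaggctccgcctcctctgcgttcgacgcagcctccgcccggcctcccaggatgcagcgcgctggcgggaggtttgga

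In 5 of the 6 sequences with capitals a match began within 30 bases of the start: 2 bases before it in FANCD2, and at base 2 in FANCF, 4 and 23 in BLM, 15 in POLQ and 22 in XRCC2, counted from the first transcribed base. In BRCA1 the match began 47 bases before the start, and a second BRCA1 window, not shown, had no match. The printed windows end 30 bases from the start, so a match after the start could lie no farther. Some members not shown matched only farther away, such as FANCL at 99 and FANCG at 84 bases before the start. The sequences shown were picked by name, and the share of all matching members or tested genes with so close a match was not counted. When the 250 bases before the start were searched alone, the E2F-type letters were found for 31.6% of members, beside 20.7% of tested genes.

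Genes that sense and resect broken ends rose, with 5 of 7 passing the test. ATR, the kinase that responds to resected ends and stalled forks, rose the most of them. It had 38.6, 38.1 and 40.8 CPM in shSIRT1, against 18.6, 19.4 and 24.7 CPM in shfirefly, and every shSIRT1 library was above every shfirefly library (log2 fold change 0.90 ± 0.09 SE, adjusted p = 1.1e-06, edgeR). EXO1, an exonuclease of long-range resection, had 25.8, 27.8 and 27.1 CPM in shSIRT1, against 15.7, 14.5 and 17.3 CPM in shfirefly, again with no overlap (0.76 ± 0.07 SE, adjusted p = 1.9e-08). MRE11 and NBN, the nuclease and the adaptor of the MRN complex that first binds the ends, rose by 0.53 and 0.51 on the log2 scale, and RBBP8, which encodes the MRN cofactor CtIP, by 0.43. ATM, the kinase that MRN activates, had 45.6, 42.8 and 51.4 CPM in shSIRT1 and 33.3, 33.6 and 43.7 CPM in shfirefly. Its groups overlapped because the shfirefly library of replicate 3 was above the lowest shSIRT1 library, and the log2 fold change of 0.33 ± 0.13 SE did not pass the test (adjusted p = 0.082). Without that shfirefly library it was 0.47 (adjusted p = 1.8e-06), and without both libraries numbered 3 it was 0.40 (adjusted p = 1.2e-05). With an offset for GC content and length it was 0.13 (adjusted p = 0.11), without shSIRT1 replicate 3 it was 0.26 (adjusted p = 0.13), and ATM passed under 6 of 16 alternative settings.

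RAD50, the ATPase of the MRN complex, was counted at far lower levels than its partners. It had 57, 35 and 83 counts in shSIRT1 and 29, 14 and 65 counts in shfirefly, and its log2 fold change of 0.75 ± 0.62 SE did not pass the test (adjusted p = 0.37). Per kilobase of annotated exon the level was 0.211 ± 0.105 CPM in the shSIRT1 group, against 0.121 ± 0.0836 CPM in the shfirefly group (SD, n = 3), beside 4.09 ± 0.205 and 2.83 ± 0.268 CPM for MRE11. RAD50 overlaps another annotated gene on the same strand, AC116366.3, which had no counts in any of the 6 libraries. How the authors' counting treated reads shared by overlapping genes is named by no source used here. Without the shfirefly library of replicate 3 the log2 fold change of RAD50 was 1.44 (adjusted p = 0.023), and without both libraries numbered 3 it was 1.01 (adjusted p = 0.023). Without shSIRT1 replicate 3 it was 0.32 (adjusted p = 0.67) and without shfirefly replicate 2 it was 0.41 (adjusted p = 0.58), and RAD50 passed under 3 of 16 alternative settings.

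In the complexes of BRCA1 and BRCA2 4 of 5 genes rose. BRCA1, which promotes resection and recruits PALB2, had 47.4, 49.03 and 53.1 CPM in shSIRT1, against 23.1, 24.6 and 30.2 CPM in shfirefly, so the groups did not overlap (log2 fold change 0.94 ± 0.09 SE, a 1.92-fold rise, adjusted p = 4e-06). BRIP1, a helicase that binds BRCA1, had 33.9, 31.1 and 38.6 CPM in shSIRT1, against 12.9, 14.5 and 22.2 CPM in shfirefly (1.06 ± 0.24 SE, adjusted p = 0.022). The groups of BRIP1 were apart but its replicates varied, with the highest level of each group in replicate 3, and the call was lost without shfirefly replicate 2, shSIRT1 replicate 1 or shSIRT1 replicate 3 (adjusted p of 0.078, 0.071 and 0.06). BARD1, the obligate partner of BRCA1 in its ubiquitin ligase, rose by 0.56 and PALB2, the bridge to BRCA2, by 0.48 on the log2 scale. BRCA2, a central mediator of recombination, had 6.72, 6.43 and 9.896 CPM in shSIRT1 and 4.92, 4.88 and 6.74 CPM in shfirefly. Its groups overlapped, and the log2 fold change of 0.46 ± 0.19 SE missed the threshold (adjusted p = 0.057). Under 9 of 16 alternative settings BRCA2 passed it, with adjusted p from 0.00047 to 0.22 over the 16. BRCA1 lies on the reverse strand of chromosome 17, from 43044295 to 43170245, and BRCA2 on the forward strand of chromosome 13, from 32315474 to 32400266 (GRCh38, GENCODE 29). The annotated span of BRCA1 overlaps 3 genes on its own strand and 4 on the other, among them NBR2, which fell, with 4.66 ± 0.267 CPM in shSIRT1, against 7.53 ± 0.259 CPM in the shfirefly group (SD, n = 3; adjusted p = 2.5e-05).

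Of the subunits of the BCDX2 and CX3 complexes and RAD51AP1, 5 of the 6 genes rose, and by unequal amounts. XRCC2, a subunit of the BCDX2 complex, had 31.1, 32.8 and 39.7 CPM in shSIRT1, against 13.9, 11.7 and 18.7 CPM in shfirefly (log2 fold change 1.22 ± 0.21 SE, adjusted p = 0.0063). XRCC3, a subunit of the CX3 complex, had 27.8, 26.9 and 28.4 CPM in shSIRT1, against 14.1, 16.4 and 18.5 CPM in shfirefly (0.76 ± 0.08 SE, adjusted p = 1.1e-07). For both, the lowest shSIRT1 library was above the highest shfirefly library. RAD51C, present in both complexes, rose by 0.40, RAD51AP1, which stimulates strand invasion, by 0.33 and RAD51D by 0.28 on the log2 scale. The call for RAD51AP1 was lost without shfirefly replicate 2 or shSIRT1 replicate 2 (adjusted p of 0.061 and 0.056), and with an offset for GC content and length its log2 fold change was 0.14 (adjusted p = 0.1). RAD51B, the remaining BCDX2 subunit, had 4.01, 3.82 and 3.17 CPM in shSIRT1 and 3.81, 3.29 and 2.94 CPM in shfirefly, which overlapped (0.14 ± 0.16 SE, adjusted p = 0.49). XRCC2 lies on the reverse strand of chromosome 7, from 152644779 to 152676165, with no annotated gene overlapping it.

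Among motors and meiotic factors RAD54L, RAD54B and MND1 rose. RAD54L, a motor protein of strand exchange, had 26.5, 28.97 and 27.2 CPM in shSIRT1, against 16.97, 17.7 and 20.1 CPM in shfirefly, with no overlap (log2 fold change 0.60 ± 0.07 SE, adjusted p = 5e-07). RAD54B, a related motor, rose by 0.44 (adjusted p = 0.019), a call that was lost without both libraries numbered 3 (0.33, adjusted p = 0.13), without shfirefly replicate 2, shSIRT1 replicate 1 or shSIRT1 replicate 3, under DESeq2 and with an offset for GC content and length. FSBP lies within RAD54B on the same strand, and reads of both may be shared. MND1, which in meiosis helps strand exchange, rose by 0.26, which did not pass the test without shfirefly replicate 1 (adjusted p = 0.077) or with that offset (adjusted p = 0.064). DMC1, the meiosis-specific recombinase, was the member that did not pass the filter on low counts. It had 9, 4 and 5 counts in shSIRT1 and 0, 0 and 3 counts in shfirefly, a ratio of 6.08 in scaled counts with a 95% exact interval of 1.78 to 32.2 that covers counting error only.

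Genes for taking apart joined molecules rose in 5 of 6 cases. BLM, the helicase of the dissolution complex, had 18.1, 18.1 and 19.1 CPM in shSIRT1, against 10.1, 7.84 and 10.6 CPM in shfirefly (log2 fold change 0.95 ± 0.10 SE, adjusted p = 4.1e-08). RMI1, its scaffold partner, had 26.3, 27.01 and 28.4 CPM in shSIRT1, against 15.7, 14.4 and 18.1 CPM in shfirefly (0.76 ± 0.08 SE, adjusted p = 4.2e-08). Neither gene had an overlap between groups, while RMI2, the third protein of that complex in the list, rose less, by 0.20 on the log2 scale (adjusted p = 0.0053). EME1, the regulatory subunit of the MUS81 nuclease, rose by 0.44 and SLX4, a nuclease scaffold, by 0.32. MUS81 itself, which cuts joint molecules, had 41.5, 39.7 and 38.2 CPM in shSIRT1 and 37.1, 38.4 and 38.1 CPM in shfirefly, which overlapped (0.07 ± 0.05 SE, adjusted p = 0.26). With library totals alone its log2 fold change was 0.19 (adjusted p = 0.0041), and with the offset for GC content and length 0.18 (adjusted p = 0.0072).

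**Figure D2:**
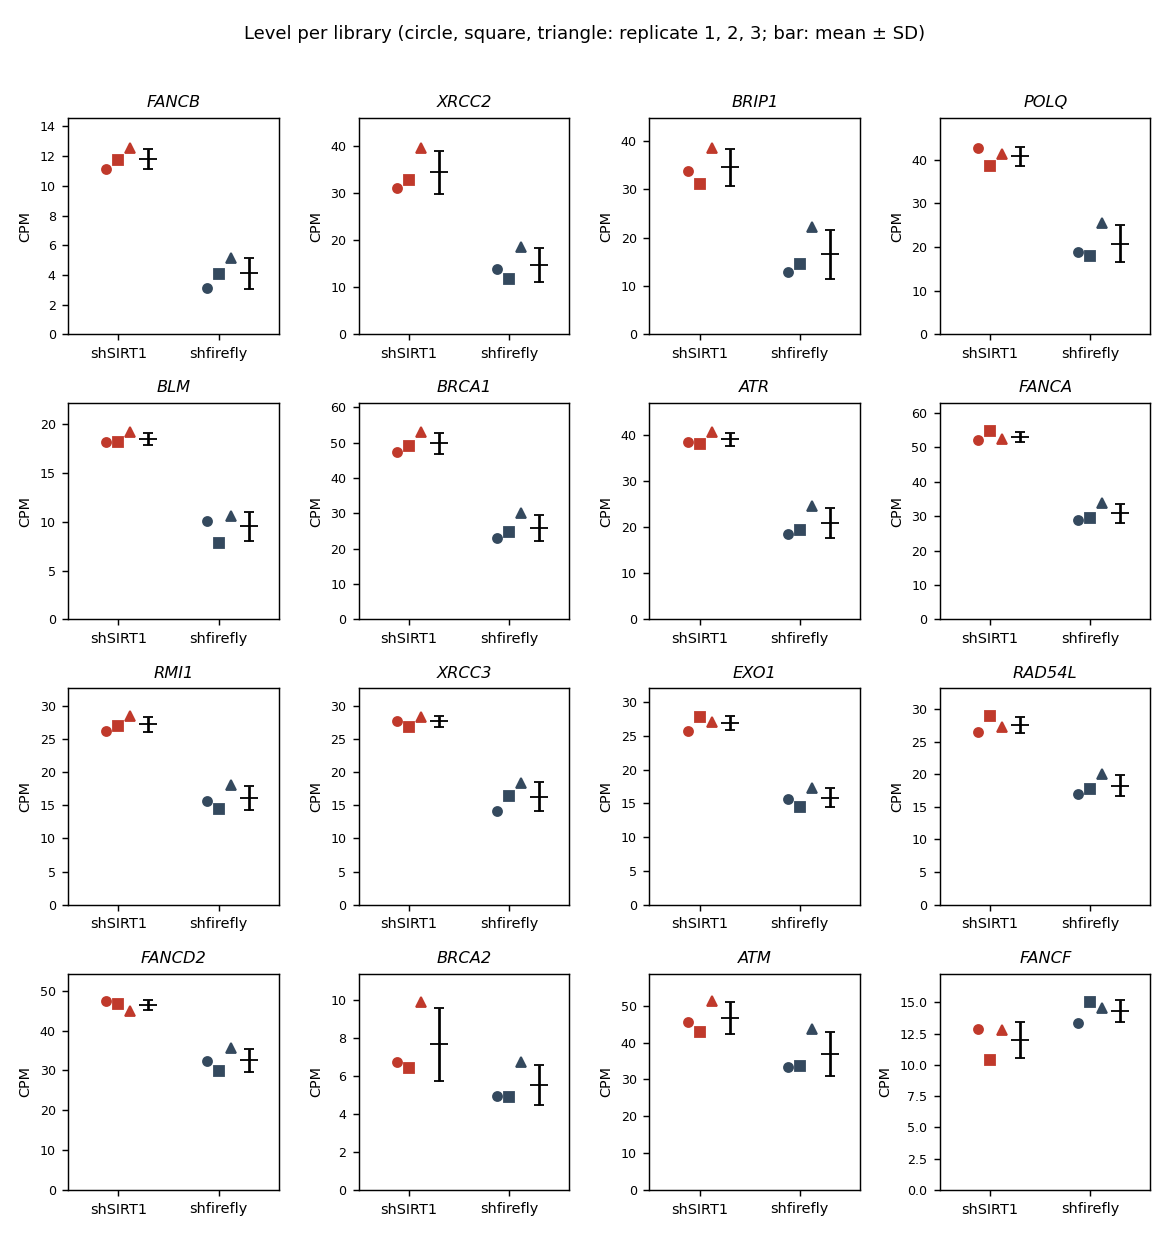
CPM (y axis, from 0) per library for the 12 members that rose at least 1.5-fold, the member that fell (FANCF), and FANCD2, BRCA2 and ATM; shSIRT1 is left of shfirefly, symbols are replicates and bars are mean ± SD (n = 3). The groups are apart for all of these except BRCA2 and ATM, and the triangle of replicate 3 tops the shfirefly group in most panels.

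The Fanconi core complex and its ubiquitin-conjugating enzyme showed the widest spread of changes, with 8 of 11 genes higher, 1 lower and 2 not passing. FANCB, an X-linked subunit of the catalytic module, rose the most of all members. It had 11.2, 11.7 and 12.5 CPM in shSIRT1, against 3.09, 4.03 and 5.16 CPM in shfirefly, and every shSIRT1 library had over 2 times the level of the highest shfirefly library (log2 fold change 1.52 ± 0.14 SE, a 2.88-fold rise, adjusted p = 3.6e-08). FANCA, which anchors a module with FANCG, had 51.96, 54.7 and 52.4 CPM in shSIRT1, against 28.8, 29.6 and 33.9 CPM in shfirefly (0.79 ± 0.06 SE, adjusted p = 4.9e-10). FANCF, which belongs to a module with FANCC and FANCE, went the other way, with 12.9, 10.4 and 12.8 CPM in shSIRT1 against 13.4, 15.1 and 14.6 CPM in shfirefly. All 3 shSIRT1 values lay below all 3 shfirefly values (-0.26 ± 0.09 SE, adjusted p = 0.026), but the call was lost without shfirefly replicate 2 or shSIRT1 replicate 2 and when library totals alone set the scale, with adjusted p of up to 0.25. FANCF lies on chromosome 11 from 22622890 to 22625841 on the reverse strand, and GAS2 overlaps it on the other strand.

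The other core genes lay between those extremes. UBE2T, the conjugating enzyme, rose by 0.58 on the log2 scale, FANCE by 0.55, the ubiquitin ligase gene FANCL by 0.54, FANCC by 0.42, FAAP24 by 0.34 and FANCG by 0.19. The call for FAAP24 was lost under 6 of 16 alternative settings, among them the omission of replicate 1 or 2 of shfirefly or replicate 2 or 3 of shSIRT1, with adjusted p up to 0.13. The call for FANCG was lost under 3, among them the omission of shfirefly replicate 1 or shSIRT1 replicate 2, with adjusted p up to 0.14. FAAP100, which holds FANCB and FANCL together, had 32.3, 32.2 and 32.2 CPM in shSIRT1 and 31.7, 36.8 and 30.3 CPM in shfirefly (-0.03 ± 0.07 SE, adjusted p = 0.75). FANCM, the translocase that brings the core complex to DNA, had 7.30, 5.22 and 11.5 CPM in shSIRT1 and 2.48, 2.07 and 4.87 CPM in shfirefly. Its groups did not overlap, yet both varied widely with the highest value in replicate 3, and the log2 fold change of 1.32 ± 0.49 SE did not pass the test (adjusted p = 0.086). FANCM passed under 4 of 16 alternative settings, with 1.45 without both libraries numbered 3 (adjusted p = 1.2e-06) but 0.98 without shSIRT1 replicate 3 alone (adjusted p = 0.12). FANCB lies on the reverse strand of chromosome X, from 14835961 to 14873069, with no annotated gene overlapping it.

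FANCD2 and FANCI, the pair that the core complex modifies, rose to a similar degree. FANCD2 had 47.4, 46.7 and 44.97 CPM in shSIRT1, against 32.3, 29.7 and 35.6 CPM in shfirefly (log2 fold change 0.51 ± 0.06 SE, adjusted p = 4e-07), and FANCI rose by 0.39 ± 0.05 SE (adjusted p = 9.7e-07). FANCI was the most abundant member by CPM, with 119 ± 5 CPM in shSIRT1, against 90.9 ± 6.37 CPM in the shfirefly group (SD, n = 3). POLQ, the polymerase of an error-prone end-joining route that also uses resected ends, had 42.7, 38.5 and 41.2 CPM in shSIRT1, against 18.8, 17.9 and 25.6 CPM in shfirefly. Its groups were apart (0.97 ± 0.14 SE, a 1.96-fold rise, adjusted p = 0.001).

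Genes whose proteins work in 1 complex were also compared as ratios. For 11 pairs of known partners, chosen after their values were seen, the ratio of CPM per kilobase was taken within each library, so that the scaling between libraries drops out. The ratio of FANCB to FAAP100 was 0.514, 0.543 and 0.580 in shSIRT1, against 0.145, 0.163 and 0.254 in shfirefly, a 2.99-fold change. For XRCC2 to RAD51D, neighbours in BCDX2, the ratio was 3.34, 3.54 and 4.10 in shSIRT1, against 1.87, 1.52 and 2.30 in shfirefly. For FANCE to FANCF it was 0.903, 1.30 and 1.04 in shSIRT1, against 0.669, 0.601 and 0.565 in shfirefly. Ratios of these 3 pairs did not overlap between groups. RAD51D overlaps the annotated gene RAD51L3-RFFL on the same strand, and reads of both may be shared. BRCA1 to BARD1 had mean ratios of 1.26 ± 0.0591 in shSIRT1 and 0.963 ± 0.107 in shfirefly (SD, n = 3). The pairs whose ratios overlapped were MRE11 to NBN, with 0.454 ± 0.0262 in shSIRT1 and 0.447 ± 0.0258 in shfirefly, and FANCD2 to FANCI, with 0.360 ± 0.0153 in shSIRT1 and 0.332 ± 0.0170 in shfirefly (SD, n = 3). By exact two-sided permutation the other 9 pairs had p = 0.1, the smallest value that 3 against 3 libraries can give, and MRE11 to NBN and FANCD2 to FANCI had exact p = 0.7 and p = 0.2. After Benjamini-Hochberg adjustment over the 11 pairs these values were 0.122, 0.7 and 0.22, so no pair passed, and no share over other pairs of genes was computed to set beside the 9. The ratios are a description of pairs picked with their values in view.

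**Figure D3:**
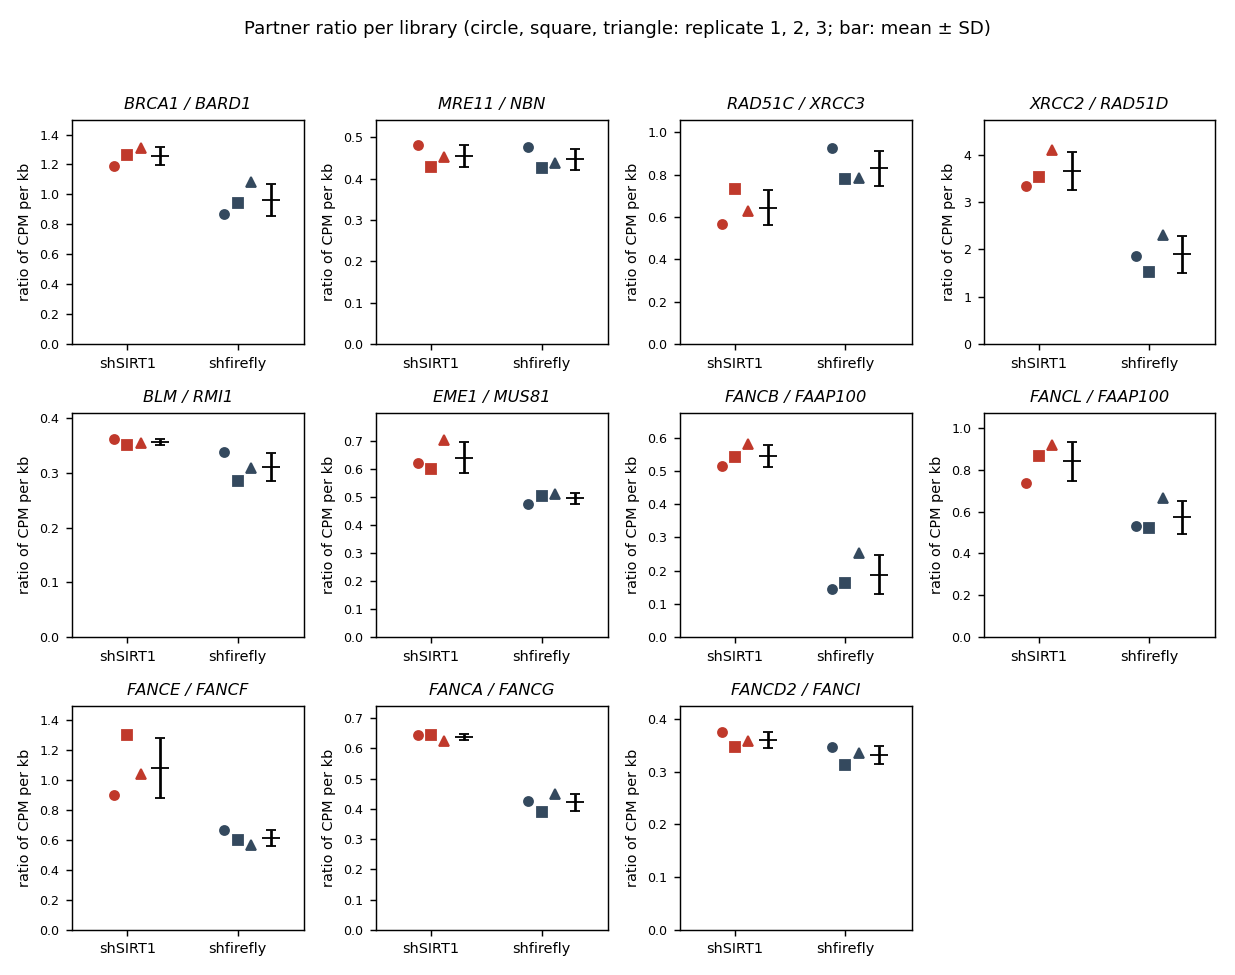
Ratio of CPM per kilobase of exon between 11 pairs of partners (y axis, from 0) in each library, with shSIRT1 left of shfirefly; symbols are replicates and bars are mean ± SD (n = 3). The FANCB to FAAP100 ratio shows the widest separation, and the MRE11 to NBN and FANCD2 to FANCI ratios overlap between groups.

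Levels differed more between members than between groups. Per kilobase of annotated exon, the level in shSIRT1 and in shfirefly was highest for UBE2T, at 21.2 ± 1.43 and 14.2 ± 1.62 CPM, and next for FANCI, at 15.4 ± 0.644 and 11.7 ± 0.820 CPM (SD, n = 3). Above the low counts of DMC1 and RAD50, the next lowest in shSIRT1 was RAD51B, at 0.490 ± 0.0587 CPM in shSIRT1 and 0.448 ± 0.0588 CPM in shfirefly, then BRCA2, at 0.626 ± 0.157 and 0.449 ± 0.0867 CPM in the same order. These levels of RAD51B and BRCA2 did not differ beyond their spread in either group. FANCB had 3.29 ± 0.193 CPM per kilobase in shSIRT1 and 1.14 ± 0.288 in shfirefly, where it was the lowest of the core subunits other than FANCM. FAAP100 in its module had 6.02 ± 0.0156 in shSIRT1 and 6.15 ± 0.637 in shfirefly. These levels rest on exon lengths from GENCODE 29, in which only 8 members have the same identifier version as in the count table.

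**Figure D4:**
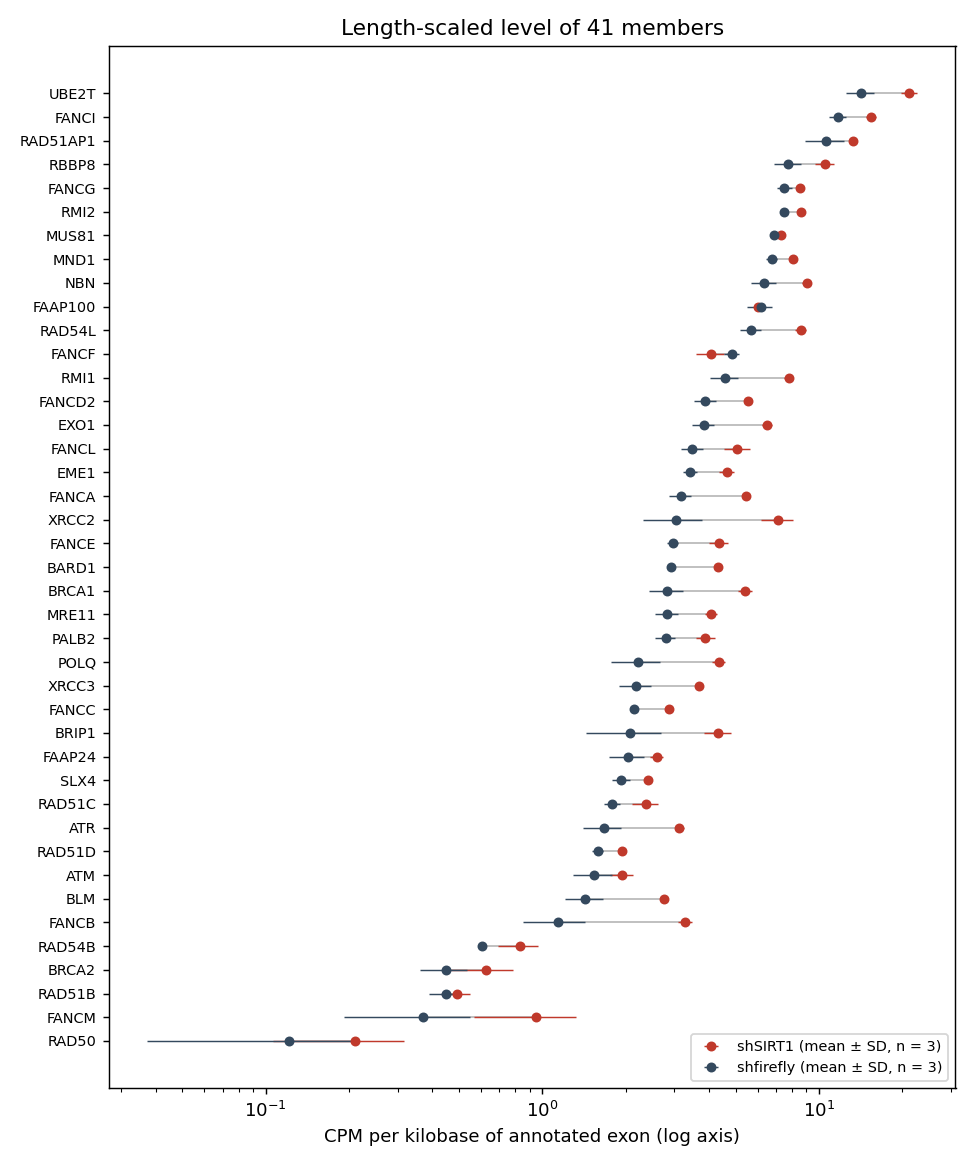
Mean CPM per kilobase of annotated exon (x axis, log scale, bars are ± SD, n = 3) of 41 members in shSIRT1 (red) and shfirefly (dark blue), ordered by the shfirefly level; DMC1, with 0 counts in 2 libraries, is left out. UBE2T and FANCI are at the top, RAD50 is at the bottom, and red lies right of blue for all but FANCF and FAAP100.

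Related repair and checkpoint genes outside the 42 rose more often than they fell. In the 4 lists that follow, 57.1%, 50%, 60% and 70.6% of the tested genes rose. Over all tested genes 26.8% rose and 26% fell, and no test of the excess was made. The lists were chosen with earlier results of these data known. Of 28 tested other homologous recombination factors 16 rose and 2 fell, with a median log2 fold change of 0.30. GEN1, a nuclease that resolves joint molecules, rose by 1.11 and DNA2, a resection nuclease, by 0.89, while BABAM2, a subunit of the BRCA1-A complex, fell by 0.45 and RAD52, which anneals strands, fell by 0.31. Of 10 tested other Fanconi factors 5 rose and 3 fell, with a median of 0.29. USP1, which removes ubiquitin from FANCD2, rose by 0.70 and the nuclease gene ERCC4 by 0.68. FAAP20, the third protein of the module of FANCA and FANCG, fell by 0.28 and ERCC1, the partner of ERCC4, fell by 0.24. Of 15 tested genes of non-homologous end joining, the competing route, and of the block to resection 9 rose and 1 fell, with a median of 0.43. The ligase gene LIG4 rose by 1.25 and XRCC5, which encodes Ku80, by 0.53, and TP53BP1, which protects ends from resection, fell by 0.14. Of 17 checkpoint genes 12 rose and 1 fell, with a median of 0.33. CLSPN, the adaptor between ATR and CHK1, rose by 1.42 and ETAA1, an activator of ATR, by 1.05, and the kinase gene WEE1 fell by 0.12. Among the genes named from these 4 lists the call held under 12 of 16 alternative settings for RAD52, whose groups overlapped, 12 for TP53BP1, 10 for ETAA1 and 6 for WEE1, with adjusted p up to 0.2, 0.76, 0.14 and 0.97, and under all 16 for the others. The differences in direction between these lists and the 42 genes were not tested.

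Cell cycle markers moved with these genes. In the lists that follow, 100%, 91.7% and 64.7% of the tested genes rose, beside 26.8% of all tested genes. No test of the excess was made, and these lists were also chosen with earlier results of these data known. All 18 S phase markers rose, with a median log2 fold change of 0.71, among them the replicative helicase genes MCM5 and MCM6 at 0.96 each. Their summed level was 2404 ± 93.5 CPM in the shSIRT1 group, against 1508 ± 81.9 CPM in the shfirefly group (SD, n = 3), a ratio of 1.59 beside 1.43 for the 42 genes. Of 12 G2 and mitosis markers 11 rose, with a median of 0.47, among them MKI67 by 0.76 and TOP2A by 0.59. CENPF did not pass the test and its groups overlapped (log2 fold change 0.53 ± 0.40 SE, adjusted p = 0.34, edgeR). The call for MKI67 held under 12 of 16 alternative settings and that for TOP2A under 11, with adjusted p up to 0.058 and 0.084. Of 17 cell cycle transcription factors and pocket proteins 11 rose, none fell and 6 did not pass the test. The rises were led by E2F2 at 1.31 and the pocket protein gene RBL1 at 0.73. The median of this list was 0.23, which lay between the quartiles of all tested genes, -0.29 and 0.28. The part of these markers in the rise of the repair genes was not tested.

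**Figure D5:**
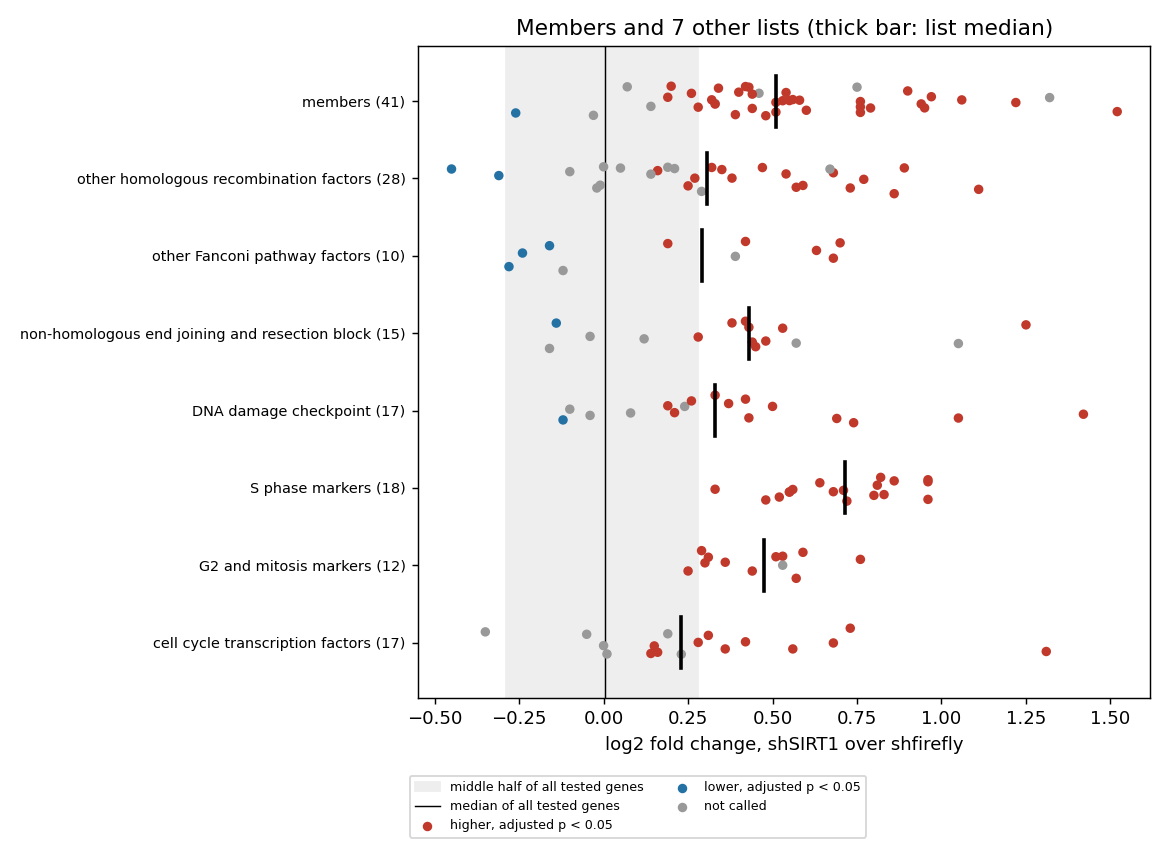
Log2 fold change (shSIRT1 over shfirefly, x axis) of each tested gene among the members and 7 other lists, with the number tested in brackets; red rose, blue fell, grey did not pass an adjusted p of 0.05. Thick bars are list medians (0.51 for the members, 0.71 for S phase markers), the grey band runs between the quartiles of all tested genes, -0.29 to 0.28, and the thin line is their median.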

How the data were processed

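RNA was sequenced from 3 shSIRT1 and 3 shfirefly cultures, per the labels' protocols by a stranded TruSeq mRNA library kit. Trimmomatic, STAR and DESeq2 on GRCh38 were used, per the submitters' processing notes; no source used here gives their versions, the read counter, the annotation or the strand setting. The authors deposited raw read counts per gene, which were analysed. Normalized counts that the authors rounded, treated as a score with their means and test statistics, were not used. The authors' deposited table also gives fold changes as a ratio and on the log2 scale, p-values and adjusted p-values.

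Columns were matched to samples by name. A chi-square statistic per gene was 2.79 to 6.05 between libraries of a group and 57.4 to 89.9 between groups. Each library counted as 1 replicate because the design text calls the samples of a group biological replicates. Of 32875 genes with a read, 16591 passed edgeR filterByExpr. Counts were scaled by TMM (factors 1.038 to 1.048 in shSIRT1, 0.948 to 0.970 in shfirefly) and tested by edgeR 4.0.16 (quasi-likelihood, robust, group alone) in R 4.3.3, with Benjamini-Hochberg adjustment over all genes tested and a threshold of 0.05. Standard errors are the absolute log2 fold change over the square root of F. The procedure was run on simulated counts with the same dispersion for all genes and no replicate effect. That setting is simpler than these data and does not cover genes whose replicates varied widely. Coordinates, exon lengths and overlaps came from GENCODE 29 on GRCh38, matched by identifier without version, so boundaries may differ from the authors'. Reads may be shared where genes overlap: 13 of the 42 members overlap a neighbour of the same orientation, 25 one of the opposite.

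The members and lists were chosen with earlier results of these data known. Values in every library are given for members called with at least a 1.5-fold rise, each called member that fell, BRCA1, BRCA2, FANCD2 and ATM, and from each other list up to 2 rising and 2 falling called genes with the largest change are named. Those of RAD50, RAD51B, MUS81, FAAP100, FANCM and DMC1 were added with their values in view, as were genes next to members. Alternatives were RLE and upper-quartile factors, library totals alone, DESeq2 1.42.0, no filter, a minimum of 1 CPM in 3 libraries, a block for replicate number, no robust estimation, an offset from splines of GC and length (5 degrees of freedom), leaving out each library, and leaving out both libraries numbered 3. Leaving out each library for the partner ratios was added after seeing the data. Intervals and the 3-count limit cover counting error only.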

Additional observations from a re-analysis of the deposited data

How the results depend on the processing

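The number of members that rose was 33 and ranged from 29 to 36 when each library was left out, was 36 with library totals alone and 31 with the offset for GC content and length, and 27 of the 34 called members kept their call under all 16 alternatives. With library totals alone the median of all tested genes moved to 0.126 and their split to 6225 higher and 3021 lower, against 4449 and 4311, and the members' median moved to 0.627, and with the offset to 0.428. The number of members that fell was 0 with library totals alone and 0 to 1 when each library was left out, against 1, FANCF. FAAP100, which was not called, changed sign to 0.09 with library totals alone, 0.13 with the offset and 0.06 without shfirefly replicate 2, within -0.09 to 0.06 when each library was left out. Fallen genes among other recombination factors numbered 1 with library totals alone, against 2. Among end-joining genes they numbered 0 with library totals alone, 0 without both libraries numbered 3 and 0 to 1 when each library was left out, against 1. Among checkpoint genes they numbered 2 with upper-quartile factors and 2 with the offset, 0 with library totals alone, DESeq2, no filter, no robust estimation or without both libraries numbered 3, and 0 to 1 when each library was left out, against 1. With library totals alone the ratio of summed CPM was 1.52 for strand exchange motors, against 1.40, 1.40 for dissolution and resolution, against 1.29, 1.47 for the Fanconi core, against 1.35, and 1.46 for the ID pair, against 1.34. The ratio was also 1.58 for end sensing and resection, against 1.46, and 1.88 for the BRCA1 and BRCA2 complexes, against 1.73. For BCDX2 and CX3 subunits and RAD51AP1 it was 1.64, against 1.51, and for POLQ 2.14, against 1.97. Every role group thus moved the same way. Library totals alone leave out the TMM factors, 1.038 to 1.048 in shSIRT1 and 0.948 to 0.970 in shfirefly. E2F-type letters were found for 31.6% of members in the shorter window, against 57.9%. The shorter window leaves out the 50 bases from the start, which held the only matches of XRCC2, POLQ and FANCF, among others. Beyond these changes of scale and window, the causes of the shifts were not tested.

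No label says that a replicate number marks a shared batch. The correlation of deviations from the group means was -0.0102, -0.0666 and 0.132 for libraries numbered 1, 2 and 3. For libraries of unlike number it was -0.154 to 0.171. These values do not tell whether libraries of the same number share a batch. With the number as a replicate block, 37 members rose and 1 fell, and ATM, BRCA2, RAD50 and FANCM passed the test. Depth limits DMC1, with 18 counts in shSIRT1 and 3 in shfirefly. The spread of RAD50 and FANCM between libraries was wide, and its source was not tested.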
